A study of Homo sapiens with 4 samples.

Results

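The chromodomain helicase DNA-binding (CHD) family was examined here in RKO cells, a human colon cancer line, after knockdown of one of its members, CHD7. The members were taken by gene symbol and are CHD1, CHD2, CHD3, CHD4, CHD6, CHD7, CHD8, CHD9 and the CHD1-like gene CHD1L. These 9 genes are 9 of the 15357 genes in the deposited tables, and all 9 were among the 11955 genes tested. The comparison asked how far the CHD7 mRNA was lowered and whether any paralog was higher in its place. The series holds 2 groups of 2 samples. The control samples are RKO cells stably infected with a control lentivirus, labelled vector. The shCHD7_2 samples are RKO cells stably infected with a lentivirus that expresses CHD7 shRNA-2, a short hairpin RNA against the CHD7 mRNA. Only 1 CHD7 hairpin was sequenced, so the loss of CHD7 and any other effect of that hairpin cannot be told apart. Nothing in the labels says that replicates came from separate infections, so the tests measure the spread between these samples, which may be technical.

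CHD proteins are ATP-dependent chromatin remodellers. Each carries a SNF2-type ATPase that uses ATP to move, space or evict nucleosomes, and all of the numbered members also carry paired chromodomains, which in CHD1 bind methylated lysine of histone H3. By their sequence the members fall into subfamilies. CHD1 and CHD2 carry a DNA-binding domain and act with transcribing RNA polymerase. CHD3 and CHD4 carry PHD fingers and are the ATPases of the NuRD complex, which also holds histone deacetylases. CHD8 and CHD9 carry BRK domains like CHD7, and together with CHD6 they are its closest paralogs. CHD1L has a macrodomain that binds poly(ADP-ribose), and it acts in the DNA damage response with PARP1. CHD7 acts at enhancers and promoters, and loss of a working copy causes CHARGE syndrome.

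Reads from one paralog can be counted for another where their mRNAs share sequence, so exact shared sequence was examined first. Stretches that differ at a few bases were not examined, and the read length is not given. The check therefore cannot exclude that some reads were shared. In GENCODE 29 (GRCh38, the build named for these data as hg38), no stretch of 50 bases in any transcript of a member occurred in a transcript of another member. The longest identical run between the coding sequences of CHD7 and another member was 41 bases, with CHD8. With CHD6 and with CHD9 it was 20 bases. Outside the pairs with CHD7, the longest runs were 37 bases between CHD3 and CHD4 and 26 bases between CHD1 and CHD2. The next lines give 3 of the shared coding runs, each pair chosen to show how short the identity between subfamily members or between subfamilies is. The capitals mark the identical run and the lower case the bases beside it, 5′ to 3′ on the coding strand, from GENCODE 29.
CHD1, chr5:98893443-98893468, minus strand, exon 14 (coding): taCAGAATTCCCTCAAAGAGCTCTGGTCtt
CHD2, chr15:92956597-92956622, plus strand, exon 16 (coding): ttCAGAATTCCCTCAAAGAGCTCTGGTCct
CHD6, chr20:41473359-41473381, minus strand, exon 17 (coding): ctcACAGCTGCTGATACCTGCATCATattt
CHD8, chr14:21403054-21403076, minus strand, exon 18 (coding): cttACAGCTGCTGATACCTGCATCATcttt
CHD4, chr12:6594508-6594527, minus strand, exon 14 (coding): ccatcTTGGCTGATGAGATGGGCCTtggga
CHD6, chr20:41489989-41490008, minus strand, exon 12 (coding): gtattTTGGCTGATGAGATGGGCCTaggga

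In the deposited table, the 36 estimated counts of the 9 members were all whole numbers, while between 13.6% and 14.7% of all values in a sample were not whole. Stretches shared with genes outside the family did exist. For CHD4, 50.1% of its 50-base words also occurred in other annotated genes, mostly the overlapping AC006064.6, and for CHD2 it was 9.54%, mostly AC013394.1. The share was at most 4.19% for the other 7 members and 0 for CHD1, CHD3, CHD6 and CHD7.

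The samples held between 15734679 and 16068650 estimated counts in total, of which the 9 members took between 0.104% and 0.122%. Each member had between 800 and 5389 counts in every sample. The epithelial keratins KRT8 and KRT18, EPCAM and the intestinal transcription factor CDX2 were detected in each sample, with 161 to 1349 counts for the first 3 and 246 to 302 for CDX2, while CDH1, KRT20 and LGR5 had at most 1 count. The epithelial markers in the table (5 of 6) summed to between 97.9 and 105.6 CPM, unscaled by TMM, in the control samples and between 105.6 and 116.2 with shCHD7_2, and the colon markers (3 of 6) to between 15.3 and 17.2 and between 15.7 and 19.2. Of the 12 fibroblast, immune and endothelial markers, 4 were in the table. COL1A1, PECAM1 and VWF had at most 7 counts. CD68, a lysosomal protein used as a macrophage marker, was at 907.8 and 850.2 CPM in the control samples, against 997.2 and 1024 CPM with shCHD7_2 (log2 fold change 0.20, adjusted p = 0.0624 from edgeR). The part of CD68 in any result was not tested.

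CHD7 fell to 0.599 of its control level. In FPKM its mean was the lowest of the family in both groups, though in the control samples its range overlapped that of CHD9. CPM values, each gene's counts relative to the library total after scaling by edgeR's TMM factors, were used to compare samples for one gene. CHD7, on chromosome 8 from 60678778 to 60868028, was at 85.4 and 91.0 CPM in the control samples, against 55.5 and 50.1 CPM with shCHD7_2. The groups did not overlap. The mean was 88.2 ± 3.92 (SD, n = 2) CPM in the control group and 52.8 ± 3.80 (SD, n = 2) in the shCHD7_2 group. The log2 fold change was -0.74 (95% interval -0.92 to -0.56), with an adjusted p = 4.15e-06 in the quasi-likelihood test of edgeR. The level fell by 40.1%, with an interval from -47.2% to -32.0%. In bulk RNA, fewer cells with a gene's mRNA and less mRNA per cell cannot be told apart. A gene counts as called here where its adjusted p lay under 0.05 and its level differed at least 1.5-fold, and 1.37% of all genes tested were called lower, CHD7 among them. In either direction 2.88% of genes were called, and 2.80% had a log2 fold change at least as large in size as that of CHD7.

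**Figure D1:**
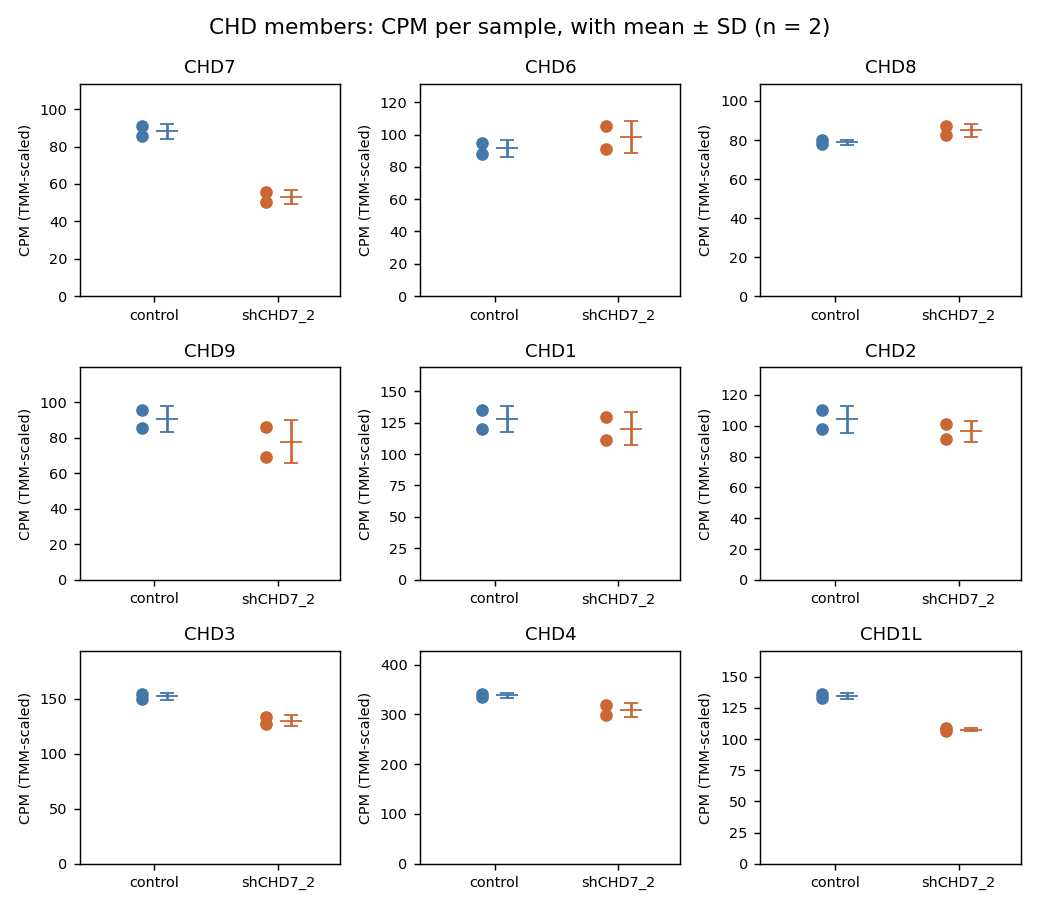
CPM of each CHD member (y axis, starting at 0, one panel per gene) in the 2 control samples (blue) and the 2 shCHD7_2 samples (orange), with the group mean ± SD beside the points. The means of CHD7 are 88.2 and 52.8 CPM and those of CHD1L 134.6 and 107.6 CPM, and no paralog shows a rise of similar size.

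None of the 8 paralogs was called in either direction in edgeR, against a background of 2.88% of all genes. In 4 of them the groups did not overlap (CHD8 higher, CHD1L, CHD3 and CHD4 lower), as in 53.7% of all genes. At an unadjusted p under 0.05 there were 3 (CHD1L, CHD3 and CHD9), all lower, where 25.4% of all genes tested passed that threshold. The paralogs had log2 fold changes between -0.32 and 0.11, with 6 below 0 and 2 above, and a median of -0.12, beside 0.00056 over all genes tested. No 95% interval of a paralog reached a 1.5-fold rise, and none overlapped the interval of CHD7. The largest rise that an interval allowed in this fit was 1.22-fold, for CHD6. With 2 samples per group, the intervals rest on 21.4 to 22.4 degrees of freedom, most of them shared from other genes. They also depend on the scaling: with library totals only in edgeR, CHD6 was at 0.15 in place of 0.10.

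CHD6 and CHD8, of the CHD7 subfamily, were the 2 members with a log2 fold change above 0. CHD8, a remodeller best known as a regulator of Wnt targets and as an autism gene, was at 77.9 and 79.8 CPM in the control samples, against 87.1 and 82.7 CPM with shCHD7_2. Both shCHD7_2 samples lay above both control samples, as in 26.4% of all genes tested. The log2 fold change was 0.11 (95% interval -0.065 to 0.28, adjusted p = 0.456 from edgeR), which did not pass the threshold. CHD6 was at 87.8 and 95.1 CPM in the control samples, against 105.3 and 91.3 CPM with shCHD7_2. The groups overlapped, and the log2 fold change was 0.10 (95% interval -0.079 to 0.29, adjusted p = 0.499 from edgeR). The value of CHD6 rested on the first shCHD7_2 sample, since without it the log2 fold change was -0.0070, and without the second shCHD7_2 sample it was 0.20.

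CHD9, the remaining paralog of the subfamily, was at 85.5 and 95.8 CPM in the control samples, against 86.3 and 69.3 CPM with shCHD7_2. The groups overlapped through the first shCHD7_2 sample. The log2 fold change was -0.22 (95% interval -0.42 to -0.019, adjusted p = 0.155 from edgeR). It was -0.39 without the first shCHD7_2 sample (adjusted p = 0.00289 from edgeR) and -0.071 without the second (adjusted p = 0.749). The closest paralogs of CHD7 thus had differences of both signs, and none passed the threshold.

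CHD1L had the largest difference among the paralogs, and it was lower. CHD1L, on chromosome 1 from 147242641 to 147295766, was at 133.0 and 136.3 CPM in the control samples, against 108.7 and 106.5 CPM with shCHD7_2. The groups did not overlap, and the samples of a group lay close together. Its log2 fold change was -0.32 (95% interval -0.49 to -0.16, adjusted p = 0.00823 from edgeR), a difference of -20.1%. It was the only paralog with an adjusted p under 0.05, where 6.54% of all genes were lower and 4.94% higher at that threshold, but it did not reach a 1.5-fold change. The adjusted p was over 0.05 in edgeR when replicate numbers entered as a block (0.0863) and without a filter on low counts (0.0711). With limma without a filter on low values it was 0.133. CHD1L also did not pass when a control sample was left out, at a log2 fold change of -0.34 without the first and -0.31 without the second. PARP1, the partner that recruits the CHD1L protein to damaged DNA, had a log2 fold change of 0.22 (adjusted p = 0.0512 from edgeR).

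The NuRD ATPases CHD3 and CHD4 were lower in both shCHD7_2 samples without passing the threshold. CHD4, the member with the highest level, was at 334.8 and 341.4 CPM in the control samples, against 318.1 and 299.1 CPM with shCHD7_2. Its log2 fold change was -0.13 (95% interval -0.28 to 0.019, adjusted p = 0.267 from edgeR). CHD3 was at 150.2 and 154.8 CPM in the control samples, against 133.8 and 126.8 CPM with shCHD7_2. Its log2 fold change was -0.23 (95% interval -0.39 to -0.066, adjusted p = 0.0614 from edgeR), and without the first shCHD7_2 sample it was -0.27 with an adjusted p of 0.0326. Leaving out any other sample gave an adjusted p from 0.203 to 0.45 in edgeR, and the replicate block gave 0.306. For both genes the groups did not overlap, as for 27.3% of all genes in that direction.

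CHD1 and CHD2, which act along transcribed genes, did not separate the groups. CHD1 was at 120.2 and 135.1 CPM in the control samples, against 129.3 and 111.1 CPM with shCHD7_2. Its log2 fold change was -0.087 (95% interval -0.27 to 0.096, adjusted p = 0.587 from edgeR). CHD2 was at 98.0 and 110.3 CPM in the control samples, against 101.3 and 91.4 CPM with shCHD7_2, with a log2 fold change of -0.11 (95% interval -0.29 to 0.068, adjusted p = 0.454 from edgeR). For both, the spread within each group was wider than the distance between the group means.

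**Figure D2:**
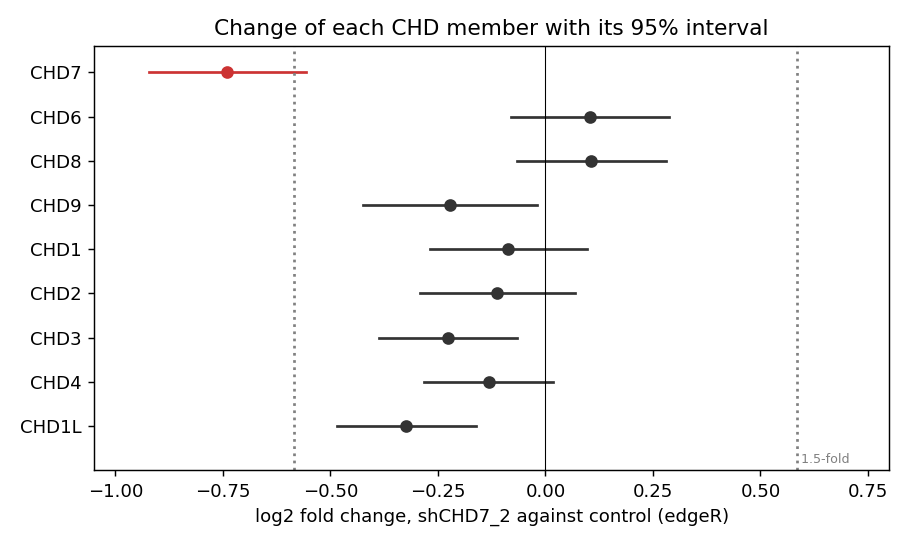
The log2 fold change of each CHD member in shCHD7_2 against control samples (x axis, edgeR) with its 95% interval; CHD7, the one member called, is in red, and dotted lines mark a 1.5-fold change in each direction. The interval of CHD7 lies apart from those of the 8 paralogs, and no paralog's interval reaches the line of a 1.5-fold rise.

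The members shared a pattern within the groups. In all 9 members the second control sample lay above the first, and the first shCHD7_2 sample lay above the second. Of all genes tested, 34.0% had that order, and of the 1196 with the longest transcripts 66.4% did. A trend of CPM with gene length, fitted in each library, lay at -0.021 and 0.064 on the log2 scale for genes as long as CHD7 in the control samples, against 0.065 and -0.10 with shCHD7_2. CHD1L had the same order of samples. For genes of its length the trend lay at 0.010 and -0.0047 in the control samples, against -0.011 and 0.011 with shCHD7_2. With that trend taken out as an offset, a setting added after the data were seen, CHD7 was at -0.70 (adjusted p = 4.7e-11 from edgeR), CHD6 at 0.14 (adjusted p = 0.173), CHD8 at 0.13 (adjusted p = 0.204) and CHD1L at -0.32 (adjusted p = 0.000262). CHD3 then had an adjusted p of 0.0205 in edgeR, with a log2 fold change of -0.20, and no paralog was called.

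Levels of different genes were compared by FPKM, the deposited values scaled for transcript length and for depth. In the control samples CHD4 had the highest level, at 52.7 ± 0.629 (SD, n = 2) FPKM, followed by CHD1L at 48.7 ± 0.891 (SD, n = 2). CHD3, with 21.7 and 22.2 FPKM, and CHD1, with 20.2 and 21.7 FPKM, came next, then CHD2 at 12.4, CHD8 at 10.1 and CHD6 at 9.50 FPKM. CHD9 at 8.33 ± 0.608 (SD, n = 2) and CHD7 at 8.28 ± 0.318 (SD, n = 2) FPKM were the lowest, and their ranges overlapped. No other neighbours in this order overlapped between the 2 control samples. The mean level of CHD7 was above that of 51.4% of the genes in the table. CHD5, which is largely neuronal and is not among the members, had 4 to 9 counts per sample and was not tested.

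In the shCHD7_2 samples CHD7 was at 5.65 and 5.34 FPKM, below both values of CHD9, which were 8.20 and 6.55 FPKM. CHD1 and CHD3 exchanged places in the order, at 20.7 ± 2.02 (SD, n = 2) and 19.4 ± 0.856 (SD, n = 2) FPKM, with ranges that overlapped. CHD2, CHD8 and CHD6 followed in the same order as in the control samples, at 11.8, 11.2 and 10.6 FPKM, and the ranges of CHD2 and CHD8 and of CHD8 and CHD6 overlapped. On this scale CHD6 did not overlap between the groups, with 9.43 and 9.57 FPKM in the control and 11.1 and 10.1 FPKM in the shCHD7_2 samples, whereas its CPM values did. FPKM carries no TMM scaling, and with library totals only CHD6 was at 0.15 (adjusted p = 0.302 from edgeR). CHD8 (higher) and CHD1L, CHD3 and CHD4 (lower) did not overlap in FPKM either, as in CPM. The share of all genes whose groups did not overlap in FPKM was not counted. In CPM it was 53.7%, with 26.4% of all genes higher, so the separation of CHD6 is not unusual by that measure.

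The summed level of the paralogs was not higher after the knockdown. CHD7 was at a difference of -2.78 FPKM between the group means. The differences were 1.12 FPKM for CHD6, 1.12 for CHD8 and -0.955 for CHD9. The summed level of CHD6, CHD8 and CHD9 was 27.3 and 28.6 FPKM in the control samples, against 30.8 and 27.6 FPKM with shCHD7_2. These sums overlapped between the groups. The sum of all 8 paralogs was 181.1 and 188.3 FPKM in the control samples, against 177.7 and 163.9 FPKM with shCHD7_2, so that both shCHD7_2 samples were lower. The log2 ratio of that sum was -0.11, and the largest part of its difference of -13.9 FPKM came from CHD1L, at -8.55 FPKM. The ratio was -0.17 without the first shCHD7_2 sample and -0.056 without the second. CHD7 made up 4.26% and 4.32% of the summed level of the 9 members in the control samples, against 3.08% and 3.16% with shCHD7_2. Within its subfamily of CHD6, CHD7, CHD8 and CHD9, it made up 22.8% and 22.9% in the control samples, against 15.5% and 16.2% with shCHD7_2. Both shares were lower in both shCHD7_2 samples than in either control sample. Since CHD7 itself is the part measured, this largely restates its own decrease and is no separate result on the paralogs.

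**Figure D3:**
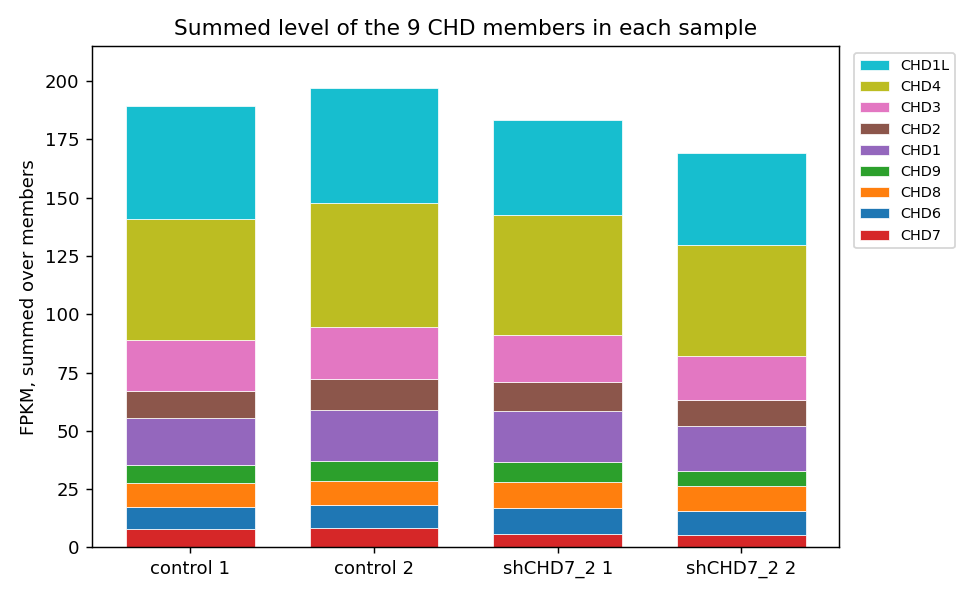
FPKM of the 9 CHD members stacked for each of the 4 samples (y axis, starting at 0, summed FPKM). CHD4 and CHD1L make up most of each bar, CHD7 is the red segment at the base, and the whole bars reach 189.1 and 196.8 FPKM in the control samples, against 183.3 and 169.3 FPKM with shCHD7_2.

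The decrease of CHD7 was smaller in FPKM than in counts. Its log2 ratio of mean FPKM was -0.59, beside -0.74 in CPM, which is scaled by TMM. With library totals only in edgeR, without TMM, CHD7 was at -0.70. FPKM divides the count by the effective length that the quantifier estimates for a gene from its isoforms, so the ratio of count to FPKM shows that length up to a constant in each sample. After scaling by the median over 10512 genes, the implied length of CHD7 was 95.3% and 90.6% of the control mean in the shCHD7_2 samples. In the control samples it was 99.7% and 100.3%. The log2 ratio between the groups was -0.11, a size reached by 2.25% of the 10512 genes. For the 8 paralogs the log2 ratios lay between -0.023 and 0.0052. The ratio of -0.023 was that of CHD1, a size reached by 18% of the 10512 genes. Within the control group the implied length also differed for some paralogs. It was 96.8% and 103.2% of the control mean for CHD6 and 97.8% and 102.2% for CHD1. For the other paralogs it lay between 98.5% and 101.6% in the control samples.

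Scaled by genes with 1 annotated transcript, the implied length of CHD7 was about 11126 and 11203 bases in the control samples, against 10636 and 10109 bases with shCHD7_2. GENCODE 29 lists a full-length CHD7 mRNA of 11568 bases and shorter coding transcripts of 4777 and 3456 bases, beside fragments of 500 bases or less. In RSEM the effective length of a gene is the mean over its isoforms, weighted by their estimated abundance. The annotation used for the deposited values is not stated, and the isoform estimates themselves were not analysed here.

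Genes that act with the CHD proteins, or that belong to the wider SNF2 family, were described from lists chosen for their known roles. Of 12 NuRD partner subunits, all were tested and none was called, where 2.88% of all genes were. Of the 12, 10 were below 0 and the median log2 fold change was -0.094, beside 0.00056 over all genes tested. There were 2 subunits with an adjusted p under 0.05 in edgeR, where 6.54% of all genes were lower at that threshold. MTA3, a scaffold subunit, was at 47.4 and 47.4 CPM in the control samples, against 35.4 and 36.7 CPM with shCHD7_2 (log2 fold change -0.40, adjusted p = 0.00522 from edgeR). RBBP7, a histone-binding subunit, was at 144.9 and 151.0 CPM in the control samples, against 121.1 and 122.5 CPM with shCHD7_2 (log2 fold change -0.28, adjusted p = 0.0194 from edgeR). The adjusted p of RBBP7 in edgeR was 0.159 with the replicate block. Without a filter on low counts it was 0.0967 in edgeR, and that of MTA3 was 0.0656. With limma without a filter they were 0.135 and 0.116. RBBP7 also did not pass when either control sample was left out (log2 fold change -0.31 without the first, -0.25 without the second). MTA3 did not pass without the second control sample, at -0.40. RBBP4, the close paralog of RBBP7, had a log2 fold change of -0.21 (adjusted p = 0.0761 from edgeR).

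Of 12 other partners reported for CHD proteins, 11 were tested and none was called or had an adjusted p under 0.05 in edgeR, where 2.88% and 11.5% of all genes did. Their median was -0.052, with 7 below 0. The 3 with the smallest p were PARP1, RBBP5 at 0.25 (adjusted p = 0.097) and WDR5 at 0.080 (adjusted p = 0.568 from edgeR), of which the last 2 are core subunits of the histone H3 lysine methyltransferase complexes that CHD8 associates with.

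Of 22 other SNF2 family ATPases, 20 were tested and none was called, against 2.88% of all genes. Their median was 0.024 with 11 above and 9 below 0. ATRX, which deposits histone H3.3 in heterochromatin together with DAXX, was the one gene of this list with an adjusted p under 0.05, a threshold that 11.5% of all genes passed. It was at 74.4 and 84.8 CPM in the control samples, against 56.2 and 57.7 CPM with shCHD7_2, a log2 fold change of -0.48 (adjusted p = 0.000812 from edgeR). Without a filter on low counts its adjusted p was 0.0681 in edgeR, and with limma without a filter it was 0.173. SRCAP, which exchanges histone H2A.Z into chromatin, was at 0.19 (adjusted p = 0.129) and SMARCA2, an ATPase of the SWI/SNF complexes, at -0.18 (adjusted p = 0.177 from edgeR).

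Of 16 genes linked to CHD7 in development, 9 were tested and none was called, against 2.88% of all genes. SEMA3A, a secreted axon guidance cue, was at 127.9 and 142.1 CPM in the control samples, against 117.1 and 112.1 CPM with shCHD7_2 (log2 fold change -0.24, adjusted p = 0.0627 from edgeR). RERE, a nuclear receptor coregulator, was at -0.20 (adjusted p = 0.142 from edgeR). SOX9, a transcription factor of neural crest and intestinal crypts, had only 17 to 36 counts per sample and a log2 fold change of -0.68 with a standard error of 0.33 (adjusted p = 0.208 from edgeR).

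**Figure D4:**
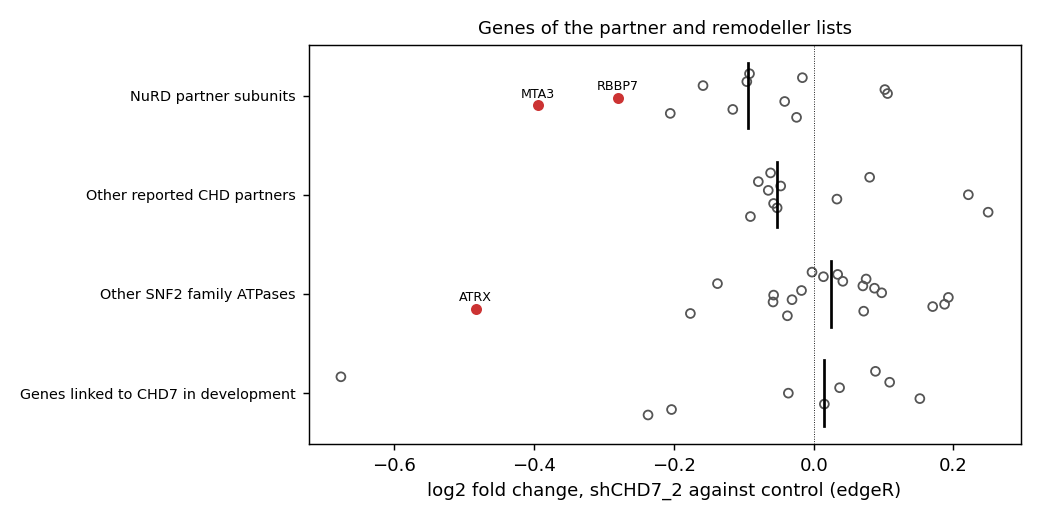
The log2 fold change in shCHD7_2 against control samples (x axis, edgeR) of the tested genes of 4 lists (12, 11, 20 and 9 genes from top to bottom); each point is a gene, the vertical bar the list's median, and filled red points have an adjusted p under 0.05. MTA3, RBBP7 and ATRX are filled, and no gene reaches both thresholds of a call.

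The genes named here for values over the 4 samples most like those of CHD7 were all called lower, which the choice by likeness largely fixes. Likeness was measured as the root mean square difference between log2 CPM values centred on each gene's mean over the 4 samples. UAP1, which makes UDP-N-acetylglucosamine, was the closest at 0.0032, with 393.5 and 416.6 CPM in the control samples, against 254.9 and 230.1 CPM with shCHD7_2. ASPH, an aspartate hydroxylase, was at 0.016, SGPP1, a sphingosine-1-phosphate phosphatase, at 0.019 and SACM1L, a phosphoinositide phosphatase, at 0.021. Their log2 fold changes lay between -0.74 and -0.71. With 4 samples this closeness describes little beyond a similar difference between the groups. Of the family, CHD1L was the nearest to CHD7 at 0.21, in place 629 of the genes tested, and CHD8 the farthest at 0.42, in place 7810.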

How the data were processed

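Polyadenylated RNA of the 4 samples was sequenced. The authors deposited expected counts (estimated read counts per gene, not normalized) and FPKM values that they had normalized for gene length and depth. The submitters' processing notes name hg38, Bowtie2, RSEM and DESeq2, with no versions; the annotation and read length are not given in the sources used here. Counts were rounded, filtered with filterByExpr of edgeR 4.0.16 in R 4.3.3, and scaled by TMM. The quasi-likelihood test of edgeR was run, and its p-values were adjusted by Benjamini-Hochberg over all 11955 genes tested. Calls required an adjusted p below 0.05 together with a 1.5-fold difference or more, as in the study. The 95% intervals came from each standard error and the quasi-likelihood degrees of freedom. On simulated counts for this comparison, with 2-fold changes among 11870 genes, 96.4% of 197 changed genes were recovered with 2 wrong calls. These counts were drawn with the same dispersion for all genes and without a length trend. CHD7 and its paralogs changed by less than 2-fold, so these rates do not apply to them. A permutation of 2 against 2 samples cannot go below p = 0.333, so sums of FPKM are given without a p.

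The members and gene lists were chosen with earlier results of these data known. Genes named are all members, the 3 genes with the smallest p of each list where none was called, and the 5 genes with a profile nearest to that of CHD7, of which 1 is not reported here. Gene positions and transcripts are from GENCODE 29, which held all 9 members by symbol. Alternatives used limma 3.58.1 on log2 FPKM, DESeq2 1.42.0 and other settings named in the closing section. The replicate numbers are shared between groups in the labels. Same-numbered samples did not deviate together, which does not decide whether they shared a batch.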

Additional observations from a re-analysis of the deposited data

How the results depend on the processing

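The number of genes called, 344, was 221 with DESeq2 (93 higher, 128 lower), 141 without a filter on low counts (53 higher, 88 lower), 1373 without a fold threshold, 68 with glmTreat against a 1.5-fold change, 172 with limma on log2(FPKM + 1) and 8 with limma without a filter on low values (2999 at an unadjusted p under 0.05), and it ran from 308 to 380 when 1 sample was left out. The lone sample of an arm was then assumed to vary like the others. CHD7 kept its direction under all 17 settings tried, from -0.82 to -0.51, and from -0.82 to -0.67 without 1 sample. It was no longer called with glmTreat (-0.74, adjusted p = 1) or with limma on FPKM, at -0.51 with a pseudocount of 1 (adjusted p = 0.0054), -0.58 with 0.1 (adjusted p = 0.00575) and -0.51 without a filter (adjusted p = 0.127). Of the paralogs, 0 were called under 16 of the 17 settings, and 1, CHD1L, without a fold threshold. CHD1L had an adjusted p under 0.05 in 11 of the 17 settings, which are not separate tests of it. The setting without a fold threshold repeats the main fit. The crossed pairing and the length offset, described below, were chosen after the data were seen. Others of the 11 leave 1 sample in the shCHD7_2 group. CHD1 was at 0.019 without the second shCHD7_2 sample and CHD6 at -0.0070 without the first, both opposite in sign to their values from 4 samples. With only CHD6, CHD8 and CHD9 summed, the log2 change of the paralogs was 0.065 in place of -0.11, and the share of CHD7 differed by -7.00 in place of -1.17 percentage points. Without 1 sample, the log2 change of all 8 paralogs summed ran from -0.17 to -0.056, and the difference in the share of CHD7 among the 9 members from -1.21 to -1.13 percentage points. ATRX, MTA3 and RBBP7 were called only without a fold threshold. UAP1, ASPH, SGPP1 and SACM1L lost their call with glmTreat and with limma without a filter.

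Deviations of same-numbered samples had a correlation of -0.198 over 11955 genes. With 2 samples per group, crossed numbers give the same value with the opposite sign. The correlation cannot decide whether the numbers mark a shared batch. With the replicate block 329 genes and 0 paralogs were called, and CHD7 was at -0.74 (adjusted p = 8.41e-07 in edgeR). Crossing the pairing gave 423 called genes and 0 called paralogs. This crossed pairing, the offset for gene length (382 genes called) and the alternatives for the genes of the lists were chosen after the data were seen. The cause of these differences between settings was not tested.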
